A study of Homo sapiens with 12 samples.

Results

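The epithelial-mesenchymal transition (EMT) genes described here are SNAI1, SNAI2, ZEB1, ZEB2, TWIST1, CDH1, CDH2 and VIM. They were measured in A2780, an established human ovarian carcinoma cell line. All probes annotated to 1 of these genes alone, under its current or an older symbol, were taken on both microarray platforms. This gave 18 probe sets on Affymetrix (AFFX) and 9 probes on Applied Biosystems (ABI), and each of the 8 genes was present on both. The genes are 8 of 19777 with an Entrez Gene ID on AFFX, 8 of 17192 on ABI and 8 of the 16186 measured on both.

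Control cells were untreated, and treated cells were exposed for 6 hours to 3 µM of a cell cycle inhibitor that the labels do not name. Both grew in the same medium, and only attached cells were harvested. For each condition, RNA of 3 biological replicates was combined into 1 pool, and aliquots of that pool were hybridised to 3 arrays per platform, 12 arrays in all. Every p-value therefore measures technical spread between arrays and compares 1 pool with 1 pool. Precision is limited by the number of arrays. In bulk RNA of this kind, fewer cells of a type and less RNA per cell cannot be told apart.

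In EMT, epithelial cells loosen their junctions and take on a motile, mesenchymal form. SNAI1, SNAI2, ZEB1 and ZEB2 are zinc finger repressors and TWIST1 is a basic helix-loop-helix factor. They are known to bind E-box sequences in DNA and to repress CDH1, the gene of E-cadherin, which holds epithelial cells together. CDH2, the gene of N-cadherin, and VIM, the gene of the intermediate filament protein vimentin, are usual markers of the mesenchymal state. In cancer the same factors are studied for their part in invasion and drug resistance.

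ZEB1 is shown with the copies in its promoters of 1 form of the E-box, as the only member searched that held any. RefSeq (GRCh38.p14) windows of 300 bases, from 250 before to 50 after an annotated start site, were searched on both strands for the E-box CACCTG, which reads CAGGTG on the other strand. No other motif was searched. The element was in 2 of 7 windows of ZEB1, and 20.6% of all 35116 windows in the table hold it. It was in neither window of CDH2 and not in the single windows of ZEB2 and VIM. For SNAI1, SNAI2, TWIST1 and CDH1 no promoter was used here. A match of letters is a description and not a measured binding site. These are the 3 copies upstream of a start site, in stretches of 30 bases on the plus strand with the E-box in capitals, and a further copy lies 33 bases after a start site. The first is at chr10:31318348-31318377, with its E-box 57 bases before the start, the second at chr10:31318966-31318995, 242 bases before, and the third at chr10:31319119-31319148, 85 bases before.
ZEB1 E-box 1: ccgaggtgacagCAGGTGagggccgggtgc
ZEB1 E-box 2: ccccaccaCACCTGaggaaaacttttccct
ZEB1 E-box 3: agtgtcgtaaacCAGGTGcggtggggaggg

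Signals are on a log2 scale, and a change is the mean of the treated arrays minus that of the control arrays. AFFX values are the authors' log2 signals, and ABI values are the authors' linear intensities turned to log2. Levels of different probes, and of the platforms, are not on 1 scale. They serve only as a rough description, as bright or dim or beside the leukocyte level defined below. A probe is given as lower or higher when limma's p, adjusted by Benjamini-Hochberg over all probes of the platform, was under 0.05 and the change was at least 1.5-fold. The files hold no detection flags. A probe is therefore described as at the leukocyte level when both of its group means lay under the 90th percentile of the probes of leukocyte markers, genes that a carcinoma line should lack. That percentile was 5.96 on AFFX (50 probe sets) and 0.15 on ABI (35 probes).

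Replicate arrays had squared Pearson correlations of 0.988 to 0.994 on AFFX and 0.940 to 0.947 on ABI, and the median replicate SD was 0.0976 to 0.113 on AFFX and 0.261 to 0.298 on ABI. Over all probes the median change was 0.12 on AFFX and 0.16 on ABI, and small rises have to be read beside these values. The leukocyte marker probes had median changes of 0.20 and 0.29. The mean signal over the 24 leukocyte marker genes on AFFX lay between 4.62 and 4.64 in control arrays and between 4.87 and 4.96 in treated arrays. Over the 25 on ABI it lay between -1.31 and -0.84, then between -0.89 and -0.76. On AFFX 1 of the 24 was higher (CD22) and on ABI 2 of the 25 were (CD8B and NKG7), and none was lower. The 18 AFFX probe sets for the spiked hybridisation controls averaged 9.26 to 9.47 in control arrays and 9.49 to 9.91 in treated arrays, and the part of this difference in the small rises was not tested. Of the ovarian carcinoma markers, 4 of 15 on AFFX (PAX8, PAX2, FOLR1 and KRT8) and 4 of 14 on ABI (PAX2, MUC16, KRT8 and KRT18) had a control mean above the leukocyte percentile. EPCAM, WT1 and MSLN, defining markers of epithelium or of ovarian carcinoma, were below it on both platforms in both conditions.

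SNAI2 and TWIST1 fell steeply on both platforms. ZEB1 and VIM each had 1 AFFX probe set that was lower, while their ABI probes did not pass. SNAI1, ZEB2, CDH1 and CDH2 had no probe that passed both thresholds. In all, 4 of 18 AFFX probe sets were lower, where 8.95% of all AFFX probe sets were, and none was higher, where 1.75% were. On ABI 2 of 9 probes were lower, against 10.1% of all probes, and none was higher, against 7.71%. Control and treated arrays did not overlap for 14 AFFX probe sets, with the treated arrays below in 7 (17.5% of all probe sets) and above in 7 (34.0%). On ABI they did not overlap for 4 probes, below in 2 (17.1% of all) and above in 2 (23.8%). The median change over the members was 0.09 on AFFX and 0.20 on ABI, close to the medians over all probes.

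**Figure D1:**
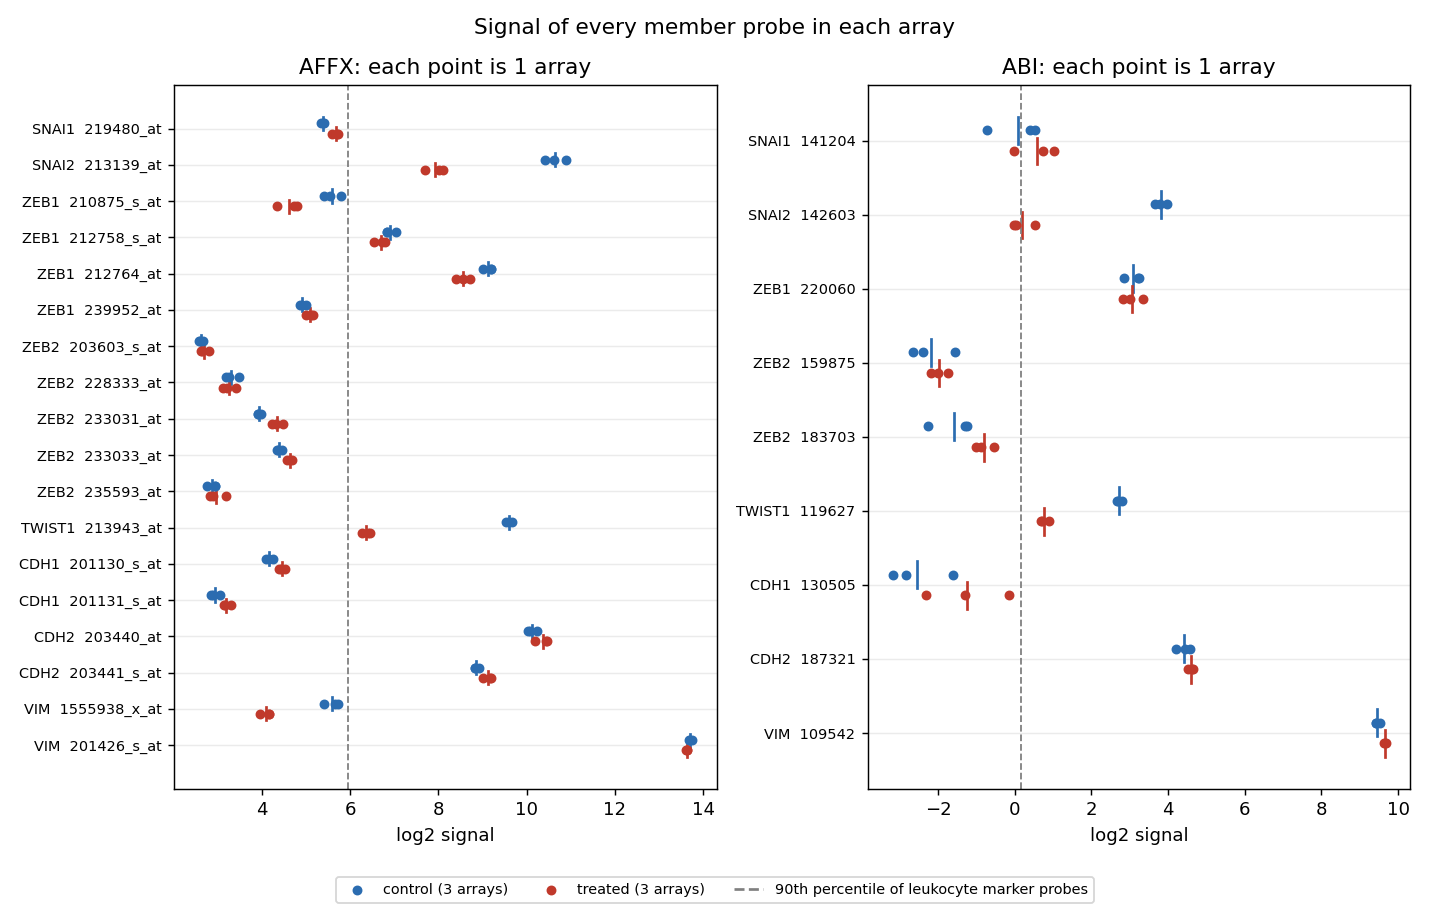
Log2 signal of each member probe (rows) in each array (points), with control arrays in blue, treated arrays in red and the mean of 3 arrays as a short line, on AFFX (left) and ABI (right). The dashed line is the 90th percentile of leukocyte marker probes, 5.96 on AFFX and 0.15 on ABI, and the largest shifts to the left are those of SNAI2 and TWIST1.

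SNAI2 (Entrez Gene ID 6591), also called Slug, is the SNAI factor known from neural crest cells and their migration. On AFFX its only probe set, 213139_at, read 10.90, 10.63 and 10.41 in control arrays and 8.0, 8.10 and 7.69 in treated arrays. All treated arrays lay far below all control arrays, and above the leukocyte percentile. The mean went from 10.65 ± 0.245 (SD, n = 3) to 7.93 ± 0.215, a change of -2.71 (SE 0.138), or 6.55-fold lower (adjusted p = 1.09e-07). On ABI probe 142603 read 3.96, 3.78 and 3.67, then 0.04, -0.01 and 0.52. In the authors' linear units these were 15.6, 13.7 and 12.7 in control and 1.03, 0.99 and 1.43 in treated arrays. Its change was -3.62 (SE 0.192), or 12.3-fold lower (adjusted p = 0.000597), and the treated mean of 0.18 was close to the leukocyte percentile. The fall was larger on ABI, with ABI minus AFFX at -0.91 on the log2 scale (95% interval -1.48 to -0.34, adjusted p = 0.0372, limma interaction). That difference passed in 4 of 14 alternative fits, with an adjusted p of up to 0.125. These fits were the replicate number as a block, array weights and each array left out, and none changed the scaling.

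SNAI1 (Entrez Gene ID 6615), also called Snail, the family member best known for repression of CDH1, did not pass on either platform. On AFFX probe set 219480_at read 5.38, 5.34 and 5.42 in control and 5.60, 5.71 and 5.72 in treated arrays. The groups did not overlap, and every value was under the leukocyte percentile. The change of 0.30 (SE 0.0812, 1.23-fold, adjusted p = 0.0148) was under the 1.5-fold limit. On ABI probe 141204 read 0.54, -0.71 and 0.40, then 1.03, -0.03 and 0.74. The groups overlapped, and the change of 0.51 (SE 0.439, 95% interval -0.58 to 1.59, adjusted p = 0.479) was no larger than the spread between arrays. When the arrays were centred on ribosomal protein genes, the changes were 0.0016 on AFFX and -0.14 on ABI.

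TWIST1 (Entrez Gene ID 7291), a regulator of mesoderm and of cranial suture development, had 1 probe per platform. On AFFX probe set 213943_at read 9.67, 9.52 and 9.61 in control and 6.40, 6.44 and 6.26 in treated arrays. This was the largest change of any member probe set on AFFX, and the treated arrays ended a little above the leukocyte percentile. From 9.60 ± 0.0741 (SD, n = 3) to 6.37 ± 0.0926, it was -3.23 (SE 0.0869), or 9.39-fold lower (adjusted p = 3.12e-09). On ABI probe 119627 read 2.81, 2.68 and 2.66, then 0.70, 0.70 and 0.89, with linear intensities of 7.01, 6.42 and 6.33 against 1.63, 1.62 and 1.85. Again the groups were far apart, by -1.96 (SE 0.127), or 3.88-fold (adjusted p = 0.000896). Here the platforms ordered the other way from SNAI2, with ABI minus AFFX at 1.28 (95% interval 0.98 to 1.58, adjusted p = 0.000159, limma interaction). This difference passed in all 14 alternative fits, none of which changed the scaling. Centring on ribosomal protein genes moved the median change over all probes by -0.30 on AFFX and -0.64 on ABI. SNAI2 and TWIST1 belong to the 10.5% of shared genes that fell on both platforms. Shared genes higher on both made up 0.420%, and those called in opposite directions 0.352%.

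ZEB1 (Entrez Gene ID 6935), a repressor with zinc finger clusters near both ends of the protein, gave different answers from its 4 AFFX probe sets. The dim probe set 210875_s_at read 5.80, 5.55 and 5.41 in control and 4.74, 4.79 and 4.35 in treated arrays. Its change was -0.96 (SE 0.133), or 1.94-fold lower (adjusted p = 0.000254), with both means at the leukocyte level. Probe set 212764_at, well above that level, read 9.19, 9.19 and 9.02, then 8.56, 8.71 and 8.41. Its change of -0.57 (SE 0.0997, adjusted p = 0.00124) was 1.49-fold, just under the limit, and the groups did not overlap. Without control replicate 3 it was -0.63 and without treated replicate 2 it was -0.65, and in each case it passed the 1.5-fold limit.

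The other ZEB1 probes moved little. Probe set 212758_s_at read 7.04, 6.84 and 6.83 in control and 6.80, 6.72 and 6.55 in treated arrays, a change of -0.21 (SE 0.0972, adjusted p = 0.106). Probe set 239952_at, at the leukocyte level, read 4.90, 4.87 and 5.00, then 5.11, 5.01 and 5.16, a change of 0.17 (SE 0.0847, adjusted p = 0.128). In both, the groups barely stood apart, and neither passed. On ABI probe 220060 read 3.24, 3.20 and 2.85, then 3.35, 2.82 and 3.01, and the groups overlapped. Its change was -0.03 (SE 0.199), with a 95% interval from -0.53 to 0.46.

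Pairs of AFFX probe sets of 1 gene were compared within each array. For ZEB1, 5 of 6 pairs changed by different amounts, the widest gap being the -1.13 (SE 0.172, adjusted p = 0.000569) between 210875_s_at and 239952_at. Over all members 7 of 19 pairs differed, and among all such pairs on AFFX, 27.5% did. The ZEB1 probe sets above the leukocyte level, 212758_s_at and 212764_at, also differed, by 0.36 (SE 0.118, adjusted p = 0.0432). Against the ABI probe, 210875_s_at differed by 0.92 (adjusted p = 0.0350), which passed in 7 of 14 alternative fits, and 212764_at by 0.54 (adjusted p = 0.141). Of the 23 pairs of an AFFX probe set and an ABI probe of 1 member, 4 differed, and 15.9% did over all genes. The 4 were the pairs of SNAI2 and TWIST1, this pair of ZEB1 and 1 of VIM.

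ZEB2 (Entrez Gene ID 9839), the close relative of ZEB1 known from neural crest and nervous system development, was at the leukocyte level with all 5 probe sets on AFFX and both probes on ABI. The AFFX control means ran from 2.61 (203603_s_at) to 4.40 (233033_at). Probe set 233031_at read 3.90, 3.90 and 3.99 in control and 4.23, 4.33 and 4.48 in treated arrays. This was the largest rise of the 5, 0.41 (SE 0.0896, 1.33-fold, adjusted p = 0.00460). Probe set 233033_at changed by 0.24 (SE 0.0820, adjusted p = 0.0427), and the other 3 by -0.06 to 0.09 with overlapping groups. Among the ZEB2 pairs of probe sets 1 differed, 228333_at against 233031_at (-0.48, SE 0.110, adjusted p = 0.00776).

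On ABI both ZEB2 probes had low intensities. Probe 183703 had linear intensities of 0.42, 0.21 and 0.41 in control and 0.54, 0.69 and 0.50 in treated arrays. Its groups did not overlap, and the change of 0.79 (SE 0.318, adjusted p = 0.144) did not pass. Probe 159875 had 0.19, 0.16 and 0.34, then 0.25, 0.22 and 0.30, which overlapped, with a change of 0.22 (SE 0.316, adjusted p = 0.672). The leukocyte marker probes, for comparison, had median changes of 0.20 on AFFX and 0.29 on ABI.

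CDH1 (Entrez Gene ID 999), the E-cadherin gene and the best known target of the repressors above, was at the leukocyte level with all 3 of its probes in both conditions. On AFFX 201130_s_at read 4.25, 4.09 and 4.16 in control and 4.39, 4.52 and 4.44 in treated arrays. The other probe set, 201131_s_at, read 2.85, 2.89 and 3.05, then 3.16, 3.29 and 3.14. Both shifted without overlap, by 0.28 (SE 0.0843, adjusted p = 0.0222) and 0.26 (SE 0.0897, adjusted p = 0.0383), and both stayed under the 1.5-fold limit. When arrays were centred on ribosomal protein genes they turned to -0.013 and -0.032. On ABI probe 130505 had linear intensities of 0.11, 0.14 and 0.33 in control and 0.90, 0.41 and 0.20 in treated arrays. The groups overlapped, and the change was 1.29 (SE 0.672, 95% interval -0.38 to 2.96, adjusted p = 0.241), with an interval that holds both no change and a rise.

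CDH2 (Entrez Gene ID 1000), the N-cadherin gene, was bright on both platforms. On AFFX 203440_at read 10.23, 10.08 and 10.03 in control and 10.44, 10.47 and 10.18 in treated arrays, which overlapped. Probe set 203441_s_at read 8.91, 8.82 and 8.83, then 9.19, 9.17 and 9.02, without overlap. Their changes were 0.25 (SE 0.101, 1.19-fold, adjusted p = 0.0728) and 0.27 (SE 0.0853, 1.21-fold, adjusted p = 0.0288). On ABI probe 187321 read 4.56, 4.44 and 4.21, then 4.62, 4.66 and 4.53, a change of 0.19 (SE 0.143, 95% interval -0.16 to 0.55, adjusted p = 0.398). With centring on ribosomal protein genes the 3 changes were -0.049, -0.027 and -0.45. The 95% intervals of all 3 probes lay within 1.5-fold in either direction as the arrays were deposited.

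VIM (Entrez Gene ID 7431), the vimentin gene, had 2 AFFX probe sets that differed sharply. Probe set 201426_s_at, near the top of the scale, read 13.75, 13.67 and 13.71 in control and 13.64, 13.64 and 13.62 in treated arrays. Its change was -0.08 (SE 0.0775, 95% interval -0.25 to 0.10, adjusted p = 0.462). Probe set 1555938_x_at read 5.74, 5.67 and 5.40, then 4.17, 4.15 and 3.95, which is 2.85-fold lower (-1.51, SE 0.107, adjusted p = 1.24e-06). Both of its means were at the leukocyte level, and the ending _x_at marks a probe set with probes that can also bind other transcripts. The changes of the pair differed by -1.44 (SE 0.125, adjusted p = 1.09e-05). On ABI probe 109542 was among the brightest, with linear intensities of 690.4, 735 and 682 in control and 819.7, 805 and 791 in treated arrays. The groups did not overlap, and the change of 0.20 (SE 0.113, adjusted p = 0.278) did not pass. Against that probe, 1555938_x_at differed by 1.71 (SE 0.151, adjusted p = 5.22e-05) and 201426_s_at by 0.27 (SE 0.106, adjusted p = 0.116).

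**Figure D2:**
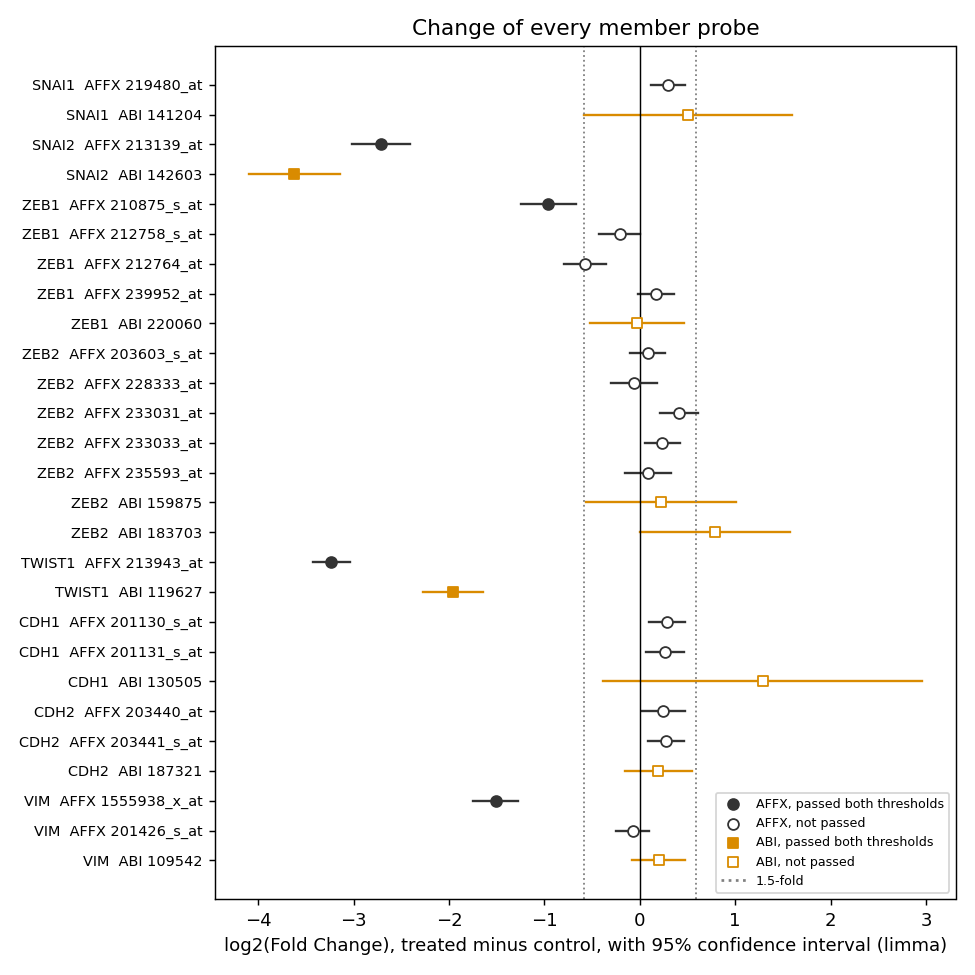
Change of each member probe, treated minus control on the log2 scale, with its 95% confidence interval from limma, for AFFX (circles) and ABI (squares), where filled symbols passed both thresholds and dotted lines mark 1.5-fold. SNAI2 and TWIST1 lie far to the left on both platforms. For ZEB1 and VIM the filled symbols are the AFFX values of -0.96 and -1.51, and ZEB1 212764_at lies at -0.57.

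The other genes of the pathway were described through 6 lists, with 1 probe standing for a gene, the one with the lowest p in a test of single probes. Equal variances were assumed in that test, a detail chosen here. That choice leans towards larger changes, and the background below was made the same way. Among all AFFX genes the lower ones made up 14.2% and the higher ones 2.49%. For ABI these shares were 14.8% and 6.31%. The median change over all genes was 0.16 on AFFX and 0.09 on ABI. Over the 6 lists, 22 of 175 genes measured on both platforms were called alike (12.6%), 20 lower (11.4%) and 2 higher (1.14%), beside 10.5% and 0.420% of all shared genes. The count depended on the ABI arrays, being 14 without ABI control replicate 1 and 14 without ABI control replicate 3. With the replicate number as a block it was 12, counted afresh, and not all of these were among the 22. With each gene's probe kept, 13 of the 22 were called without each of the 12 arrays in turn. Genes named below that passed on 1 platform alone were chosen after their values were seen.

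Cofactors and turnover factors of SNAI and ZEB proteins were lower in 16 of 30 cases on AFFX, with none higher and a median change of -0.62. On ABI 11 of 29 were lower and none was higher, with a median of -0.45. All 11 were also lower on AFFX. A control mean above the leukocyte percentile was seen for 26 of the 30 on AFFX and 25 of the 29 on ABI. The shares over all genes also cover dim genes, and the part of level in these counts was not tested. The list, like the others, was chosen with earlier results of these data known. When the 6 ABI arrays were left out in turn, the ABI call of LIMD1 was lost each time, and those of EZH2, LATS2 and FBXO45 were kept in 1, 4 and 5 of the 6 cases. With the replicate number as a block, the ABI calls of EZH2, CSNK2A1, LATS2, FBXO45 and LIMD1 were lost. FBXL5, an F-box protein that marks SNAI1 for degradation, changed by -2.70 (SE 0.131) on AFFX and -2.90 (SE 0.122) on ABI. Its treated AFFX mean of 5.36 was under the leukocyte percentile. SIN3A, a scaffold of histone deacetylase complexes, changed by -2.30 and -2.81, SIAH1, a RING ubiquitin ligase, by -1.77 and -2.68, and FBXO11, another F-box protein, by -1.22 and -1.70. The rest of the 11 were SUV39H1 and EZH2 (histone methyltransferases), CTDSP1 (a phosphatase), CSNK2A1 and LATS2 (kinases), FBXO45 (an F-box protein) and LIMD1 (a LIM domain protein). Their AFFX changes ran from -1.09 to -0.64, and their ABI changes from -1.38 to -0.64. The list holds, among others, partners of repression and factors that act on the stability of SNAI or ZEB proteins. Members of both kinds were lower.

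Inducers and receptors gave 7 of 34 lower and none higher on AFFX (median 0.19), and 6 of 33 lower and 4 higher on ABI (median -0.10). FZD7, a receptor for Wnt ligands, changed by -3.65 (SE 0.160) on AFFX, from 8.85 to 5.20, and by -3.75 (SE 0.201) on ABI, from 3.12 to -0.63. Both treated means were under the leukocyte percentile, so no fold is given. The activin receptor gene ACVR2A changed by -0.83 and -2.69, and the growth factor gene FGF2 by -0.85 and -1.30. NOTCH1 changed by -0.63 and -1.43, and ACVR1, a BMP and activin type I receptor, by -0.70 and -0.90. The treated ABI means of ACVR2A (-0.84) and NOTCH1 (-1.10) were under the leukocyte percentile. When ABI arrays were left out in turn, ACVR2A and ACVR1 were called in 2 of 6 cases each and NOTCH1 in 3 of 6. The ABI calls of ACVR2A, ACVR1 and NOTCH1 were also lost with the replicate number as a block. ACVR1B, an activin type I receptor, was called in opposite directions, -0.97 (SE 0.0813, adjusted p = 4.89e-06) on AFFX and 1.94 (SE 0.225, adjusted p = 0.00446) on ABI. Its ABI mean rose from -2.84 to -0.91, both under the leukocyte percentile. The 4 higher on ABI were ACVR1B, BMP7, EGF and TGFBR2, and BMP7 and EGF likewise had both means under that percentile.

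Of other EMT transcription factors, 2 of 18 were lower (HMGA2 and MSX1) and 1 higher (ZNF703) on AFFX, with a median change of 0.21. On ABI 2 of 17 were lower (MSX1 and TCF12) and none was higher, with a median of 0.16. On AFFX the treated mean of HMGA2 and both means of ZNF703 were under the leukocyte percentile. MSX1, a homeobox factor of neural crest and limb, was lower on both, with AFFX means of 11.08 and 9.20 (-1.89, SE 0.0977) and ABI means of 5.27 and 2.95 (-2.32, SE 0.150).

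Among 37 epithelial genes on AFFX none was lower and 1 was higher (CLDN6), with a median change of 0.26. Among 33 on ABI 1 was lower (KRT18) and 2 were higher (CLDN4 and ESRP1), with a median of 0.03, and both means of ESRP1 were under the leukocyte percentile. No gene of this list was called alike on both platforms. A control mean above the leukocyte percentile was seen for 12 of the 37 on AFFX and 8 of the 33 on ABI.

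Mesenchymal genes gave 4 of 43 lower (CCN1, CCN2, COL1A2 and COL3A1) and 3 higher (CD44, CNN1 and S100A4) on AFFX, with a median of 0.32. On ABI 3 of 41 were lower (CCN1, CCN2 and PDGFRA) and 3 higher (ACTA2, COL1A1 and S100A4), with a median of 0.21. CCN2, a secreted matricellular protein, changed by -2.74 (SE 0.0902) on AFFX and -3.26 (SE 0.120) on ABI. Its treated means of 5.78 and -0.39 were under the leukocyte percentile, and no fold is given. Its relative CCN1 changed by -1.36 (SE 0.0805) and -1.94 (SE 0.116). S100A4, a calcium-binding protein, was higher by 0.63 (SE 0.0788) and 0.60 (SE 0.113), just past 1.5-fold on both platforms. Its ABI call was lost whichever of the 6 ABI arrays was left out (adjusted p = 0.0576 to 0.0760). COL1A1 on ABI had both means under the leukocyte percentile, and COL1A2 and COL3A1 on AFFX had treated means under it. On ABI the mean of COL1A2 went from 5.66 to 5.92 and that of COL3A1 from 7.65 to 7.85, and neither passed. PDGFRA, lower on ABI, had an AFFX mean that went from 6.16 to 6.69 and did not pass.

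The wider family of cadherins and catenins gave 2 of 25 lower (PKN2 and PKP4) and 1 higher (CDH15) on AFFX (median 0.21). On ABI 3 of 25 were lower (CDH10, CTNND1 and PKP4) and 2 higher (CDH6 and CDH15), with a median of 0.0014. PKP4, a junction protein of the p120 catenin family, changed by -0.70 (SE 0.0889) on AFFX and -1.02 (SE 0.158) on ABI. The ABI call of PKP4 was lost with the replicate number as a block (limma, adjusted p = 0.0530). CDH15, the muscle cadherin, was higher by 0.69 (SE 0.0997) and 0.70 (SE 0.136). Its ABI call was also lost whichever ABI array was left out (adjusted p = 0.0510 to 0.0770). CDH6 and CTNND1 on ABI had both means under the leukocyte percentile. Fibroblast and endothelial markers gave 1 of 18 lower (COL3A1) and 1 higher (CLDN5) on AFFX, and 1 of 18 lower (FAP) and 3 higher (ACTA2, COL1A1 and RGS5) on ABI. The treated ABI mean of FAP, -0.96, was under the leukocyte percentile. The ovarian carcinoma markers gave 1 of 15 lower (PAX2) on AFFX, and 1 of 14 lower (KRT18) and 1 higher (MUC16) on ABI. On the other platform the means went up, from 2.11 to 2.41 for PAX2 on ABI and from 5.93 to 6.11 for KRT18 on AFFX. That of MUC16 on AFFX went from 4.02 to 4.24, and none of these passed.

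**Figure D3:**
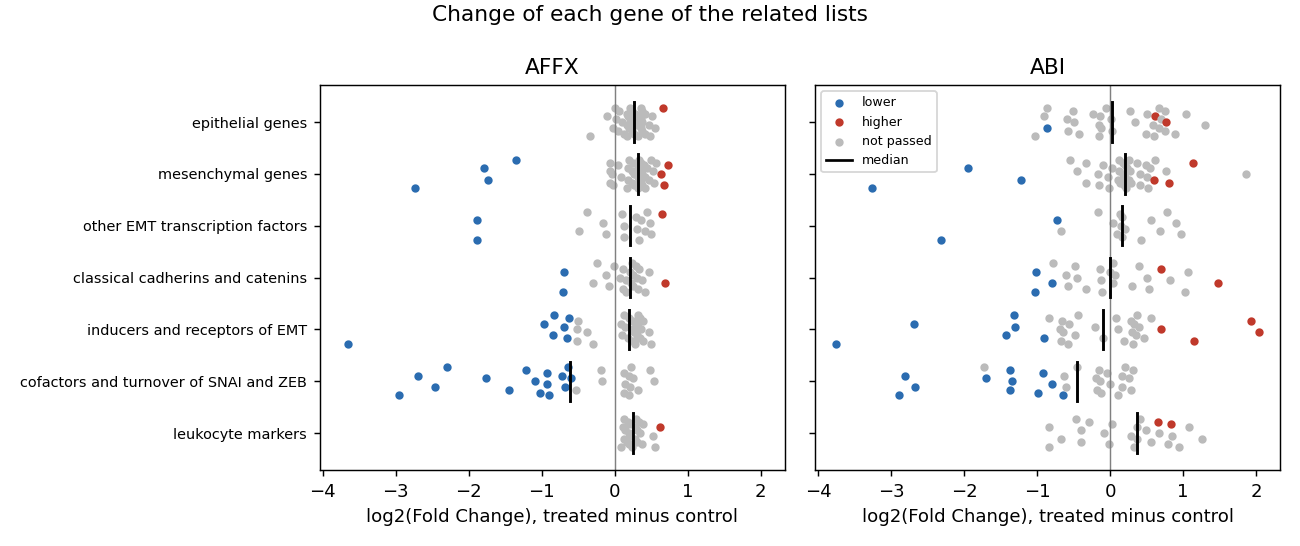
Change of each gene of 6 related lists and of the leukocyte markers, treated minus control on the log2 scale, on AFFX (left) and ABI (right), with 1 point per gene, blue for lower, red for higher and grey for not passed, and the list's median as a black line. The cofactor and turnover list has medians of -0.62 and -0.45, and the vertical scatter within a row carries no meaning.

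**Figure D4:**
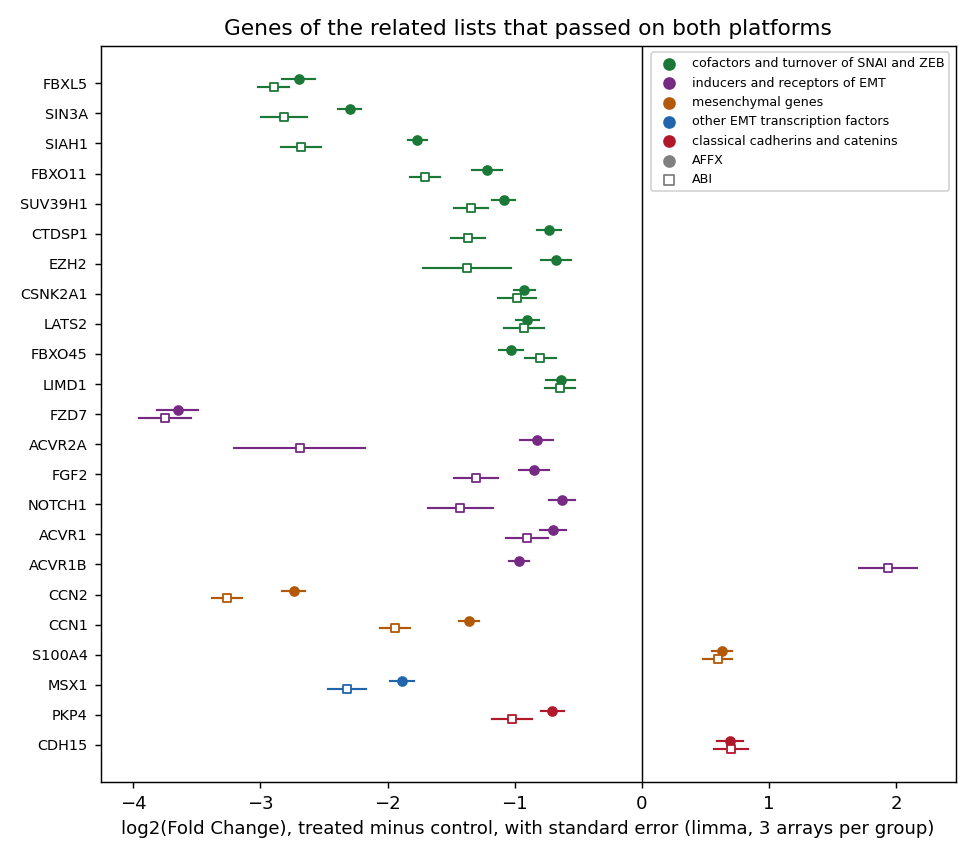
Genes of the related lists that passed on both platforms, with the change on the log2 scale and its standard error (3 arrays per group), as filled circles for AFFX and open squares for ABI, coloured by list. FZD7 lies at -3.65 and -3.75, and ACVR1B is the gene that lies on opposite sides of 0.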

How the data were processed

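Cells were A2780, and 12 arrays in 4 groups of 3 were analysed. On AFFX the authors deposited log2 signals from RMA, normalized by the quantiles method; the RMA version is not given in the sources used here. On ABI the deposited values are linear chemiluminescence intensities with 2 decimals, after the authors' global median normalization, and they were turned to log2 here. The unit of the ABI scale is not given in the sources used here. Leaving out 62 control probe sets, 54613 AFFX probe sets and 33096 ABI probes were analysed. Genes were taken from the platform annotation, with symbols updated through Entrez Gene IDs (AFFX, 19735 of 19777 genes; ABI, 17172 of 17192), and only probes with 1 gene were named. Probes were not placed on a genome, and positions are given for the RefSeq promoter windows of ZEB1 alone.

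Treated and control arrays were compared per platform without pairing, in limma 3.58.1 (R 4.3.3), and p-values were adjusted by Benjamini-Hochberg across every probe of the platform. The same tool tested the difference of changes between platforms for every pair of probes of 1 gene, and between pairs of AFFX probe sets of 1 gene. The limma fits per platform, both tests of differences and the choice of probe were run on simulated data, and the other steps were not. The alternatives were other scalings, an added offset of 0.5 on ABI, the replicate number as a block, array weights, a filter on dim probes, the methods' t-test with equal variances assumed, other fold limits, another choice of probe and each array left out.

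The members and lists were chosen with earlier results of these data known. Named were every member probe, at most 4 genes of each list, those with the largest mean change among genes passing the same way on AFFX and ABI and all genes called in opposite directions. The rule's genes nearest to a member are not reported, since the distance set for them uses levels of different probes. Genes of small counts, and the rest of the cofactors and receptors called on both, were named after their values were seen.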

Additional observations from a re-analysis of the deposited data

Results flagged for a closer look

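Differences between platforms in the size of a member's change passed the interaction test for 4 pairs of probes. The paper reports that fold changes spanned a slightly wider range on ABI, and the part of this in the differences was not tested. ABI minus AFFX was -0.91 for SNAI2 (213139_at and 142603), 1.28 for TWIST1 (213943_at and 119627), 0.92 for ZEB1 (210875_s_at and 220060) and 1.71 for VIM (1555938_x_at and 109542). With single arrays left out, the SNAI2 difference passed without AFFX control replicate 1, AFFX treated replicate 3, ABI control replicate 3 or ABI treated replicate 3 and was lost without any other array. The ZEB1 difference was lost without AFFX control replicate 1 or 2, AFFX treated replicate 1 or 3, ABI control replicate 3 or ABI treated replicate 1. SNAI2 and TWIST1 were lower on both platforms and differ in size alone, whereas for ZEB1 and VIM the ABI probe did not pass. The AFFX probe sets of the hybridisation controls, which no comparison above uses, were higher in treated arrays by a mean of 0.42 on the log2 scale. These transcripts are added to every sample and do not come from the cells. The rise was not uniform, and ran from 0.063 for the bright AFFX-r2-P1-cre-3_at to 0.61 for AFFX-BioB-3_at.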

How the results depend on the processing

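SNAI2 and TWIST1 were lower in all 13 alternatives on AFFX and all 14 on ABI, with AFFX changes of -3.01 to -2.58 and -3.53 to -3.18, and ABI changes of -4.26 to -3.14 and -2.60 to -1.69. VIM 1555938_x_at was lower in all 12 of its alternatives, and ZEB1 210875_s_at in 11 of 12, the exception being a 2-fold limit. The count of 4 AFFX probe sets was 2 among probes above the median signal, which leaves fewer to test, and 11 with no fold limit, and it stayed between 4 and 5 when single arrays were left out. ZEB1 212764_at also passed with centring on ribosomal protein genes (-0.87) or on the array median (-0.63). The 2 ABI probes passed under every alternative run.

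Centring on ribosomal protein genes moved the median change of all probes by -0.30 on AFFX and -0.64 on ABI. Probes lower and higher were then 8135 and 112 on AFFX (4888 and 958 as deposited) and 8347 and 191 on ABI (3347 and 2553), and quantile normalization of ABI gave 2896 and 2827. With that centring, changes turned to -0.12 for ZEB1 239952_at, to -0.21 for ZEB2 203603_s_at, -0.062 for 233033_at and -0.21 for 235593_at, to -0.013 and -0.032 for CDH1, to -0.049 and -0.027 for CDH2, and on ABI to -0.14 for SNAI1, -0.42 for ZEB2 159875, -0.45 for CDH2 and -0.44 for VIM. Quantile normalization turned ABI ZEB1 to 0.22, ZEB2 159875 to -0.046 and VIM to -0.41. Leaving out single arrays changed the sign for ZEB2 228333_at (-0.15 to 0.022), ZEB2 235593_at (-0.023 to 0.17) and ABI ZEB1 220060 (-0.18 to 0.087).

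The platform differences numbered 2 instead of 4 with array weights and 2 to 4 when single arrays were left out (2 without AFFX control replicate 2, AFFX treated replicate 1 or ABI treated replicate 1), and TWIST1 and VIM passed each time. Other scalings were not run for the platform differences. Pairs of AFFX probe sets that differed numbered 5 to 7, and list genes called on both platforms 14 to 23. Same-numbered arrays deviated together to differing degrees, with correlations of 0.0040 to 0.33 on AFFX and -0.0067 to 0.072 on ABI. Of the 6 arrays per platform, 3 on AFFX and 4 on ABI correlated best with their own number. The check does not settle whether the numbers pair the arrays, so both fits are given. With the replicate number as a block, 4 AFFX and 2 ABI member probes passed, platform differences numbered 3 and probe set differences 8. List genes called on both platforms then numbered 12 instead of 22, and cofactors lower on ABI 7 instead of 11. The cause was not tested for any of these. The 12 and the 7 were counted afresh, and not all of those genes are among the 22 and the 11. The spread between ABI arrays limits what can be seen at low signal, as for CDH1, ZEB2 and SNAI1.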
